A study of Arabidopsis thaliana with 24 samples.

Results

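The comparison described here asked what a combined hormone stimulus did to the nuclear transcripts of detached Arabidopsis thaliana leaves before any transcription inhibitor had acted. It took the 3 stimulus and the 3 mock libraries labelled 0 min, which are 6 of the 24 libraries of the series. All nuclear genes, with locus numbers from AT1G to AT5G, were considered: 20057 of 37751 had enough counts to be tested. The response is described by gene family and pathway beyond the auxin, cytokinin and brassinosteroid genes themselves, and each group was examined with and without mock replicate 3.

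Plants of the accession Columbia-0 were grown on soil for 10 d in continuous light, and their first pair of leaves was used. Each sample pooled about 18 to 20 detached, surface-sterilised leaves, which were shaken for 8 h at 21 °C. Both groups received the same buffer, with 5.0% glucose, 0.22% Murashige and Skoog salts and 0.2% dimethyl sulfoxide. Mock leaves had only this buffer. Stimulus leaves also had bikinin at 20 µM, the synthetic auxin 2,4-D at 2.5 µg/mL and the cytokinin kinetin at 0.5 µg/mL. The rest of the series followed RNA after cordycepin, a nucleoside analogue that ends RNA chains, at 1 mM, and the 0 min leaves were frozen at its addition. Because all 3 agents were given together, their separate effects cannot be told apart. The replicates carry the numbers 2, 3 and 4, and nothing says whether they came from separate sowings, so p-values measure only the spread between these samples, which may be technical.

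Bikinin inhibits the GSK3-like kinases that hold back brassinosteroid signalling, so the mixture acts through 3 growth hormone pathways at once. Auxin and cytokinin together drive plant cells into division, and with bikinin they are used to turn leaf mesophyll cells into vascular cells in culture. Such a change of cell identity involves the cell cycle, ribosome production and wall loosening. Leaf cells in turn carry programmes for photosynthesis, stomata and defence compounds.

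The 6 libraries held 28524097 to 32763368 counts. Organelle features took 38.1, 39.5 and 35.7% of them in mock replicates 2, 3 and 4 and 31.5, 30.7 and 33.1% in stimulus. These shares did not overlap between the groups. The stranded libraries came from total RNA depleted of ribosomal RNA. Levels are given as CPM, the reads of a gene per 1000000 reads, with library sizes scaled by edgeR's trimmed mean of M values (TMM), always in the order of replicates 2, 3 and 4. Changes are log2 ratios of stimulus over mock with their standard error (SE) from edgeR's quasi-likelihood fit, n = 3 libraries per group. A gene is called changed, and described as having risen or fallen, at a Benjamini-Hochberg adjusted p under 0.05 in that fit. All 6 leaf mesophyll markers were tested, while none of the 6 root, 5 seed and 2 pollen markers found in the table had enough counts. The summed level of the 6 root markers was at most 0.203 CPM in any library, while that of the mesophyll markers was 6015 CPM or more.

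Mock replicate 3 stood apart in genes of the circadian clock. CCA1, a morning clock repressor, stood at 40.8, 9.35 and 38.6 CPM in mock and 35.04, 26.3 and 36.4 CPM in stimulus. Its partner LHY stood at 42.1, 16.1 and 41.6 CPM in mock and 41.3, 34.7 and 42.6 CPM in stimulus. TOC1, which peaks later, stood at 50.0, 91.2 and 50.5 CPM in mock and 42.9, 46.3 and 46.0 CPM in stimulus. The mock library of replicate 3 was thus lowest of the 6 in both morning genes and highest in TOC1. What sets this library apart was not tested. Results that rest on this library are given with and without it.

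Of the 20057 nuclear genes tested, 11325 were called (56.5%), 5390 of them higher in stimulus (26.9%) and 5935 lower (29.6%). At least 2-fold changes were fewer, with 1784 called genes higher (8.89%) and 2524 lower (12.6%). The median log2 change over all tested genes was -0.01. Each gene list is to be read beside these shares. Groups that did not overlap were also common: all 3 stimulus libraries lay above all 3 mock libraries for 31.7% of genes and below for 33.4%. When libraries were scaled by their total counts instead, the median was 0.23, a shift of 0.25. Then 8286 genes were called higher and 4065 lower, so directions of small changes are relative to the scaling. TMM factors did not overlap between the groups, at 0.880, 0.947 and 0.928 in mock and 1.09, 1.12 and 1.06 in stimulus. What sets the groups apart in TMM factor and organelle share was not tested. The following counts moved by more than 1.5 times with total counts. Among genes called higher, ethylene genes went from 9 to 15, cellulose genes from 1 to 4, cuticle genes from 5 to 8, phosphate genes from 3 to 6, sulfate genes from 2 to 4 and TCP factors from 3 to 6. Among genes called lower, WRKY factors went from 12 to 7, cuticle genes from 11 to 4, clock genes from 8 to 5, organ growth genes from 7 to 4, iron storage genes from 5 to 3, strigolactone genes from 4 to 1, ethylene genes from 4 to 2 and phosphate genes from 2 to 0. Of the genes described as losing their call without single libraries, CYCA2;3, CYCD5;1, REIL1, TCH4, FAMA, KCS6, GUN5, BHLH38 and FER1 were also not called with total counts (adjusted p 0.0540 to 0.890). The strand setting of the counting is not given, and 57 of the 332 genes named by the rule overlap another tested gene, 51 of them on the opposite strand. Among those described here, values are uncertain for this reason for TSO2, DEL1, ICU2, RNR2A, HTA12, CDKB1;1, KNOLLE, CYCA2;3, CYCD3;1, REIL1, CESA1, CESA3, TUB7, MYB106, LHCB2.3, PSAN, PORB, PIF7, COR15B, ACS10, ERS1, RLP23, CYP71A13, WRKY40, BHLH38, FRO3, FER1 and GSTF2. Overlap is not given for ERF1, ARGOS, SMR4, HT1, CYP707A1, CYP707A4, ABA2, OBP2 and OBP4. In bulk leaf RNA, fewer cells of a type and less RNA per cell cannot be told apart.

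**Figure D1:**
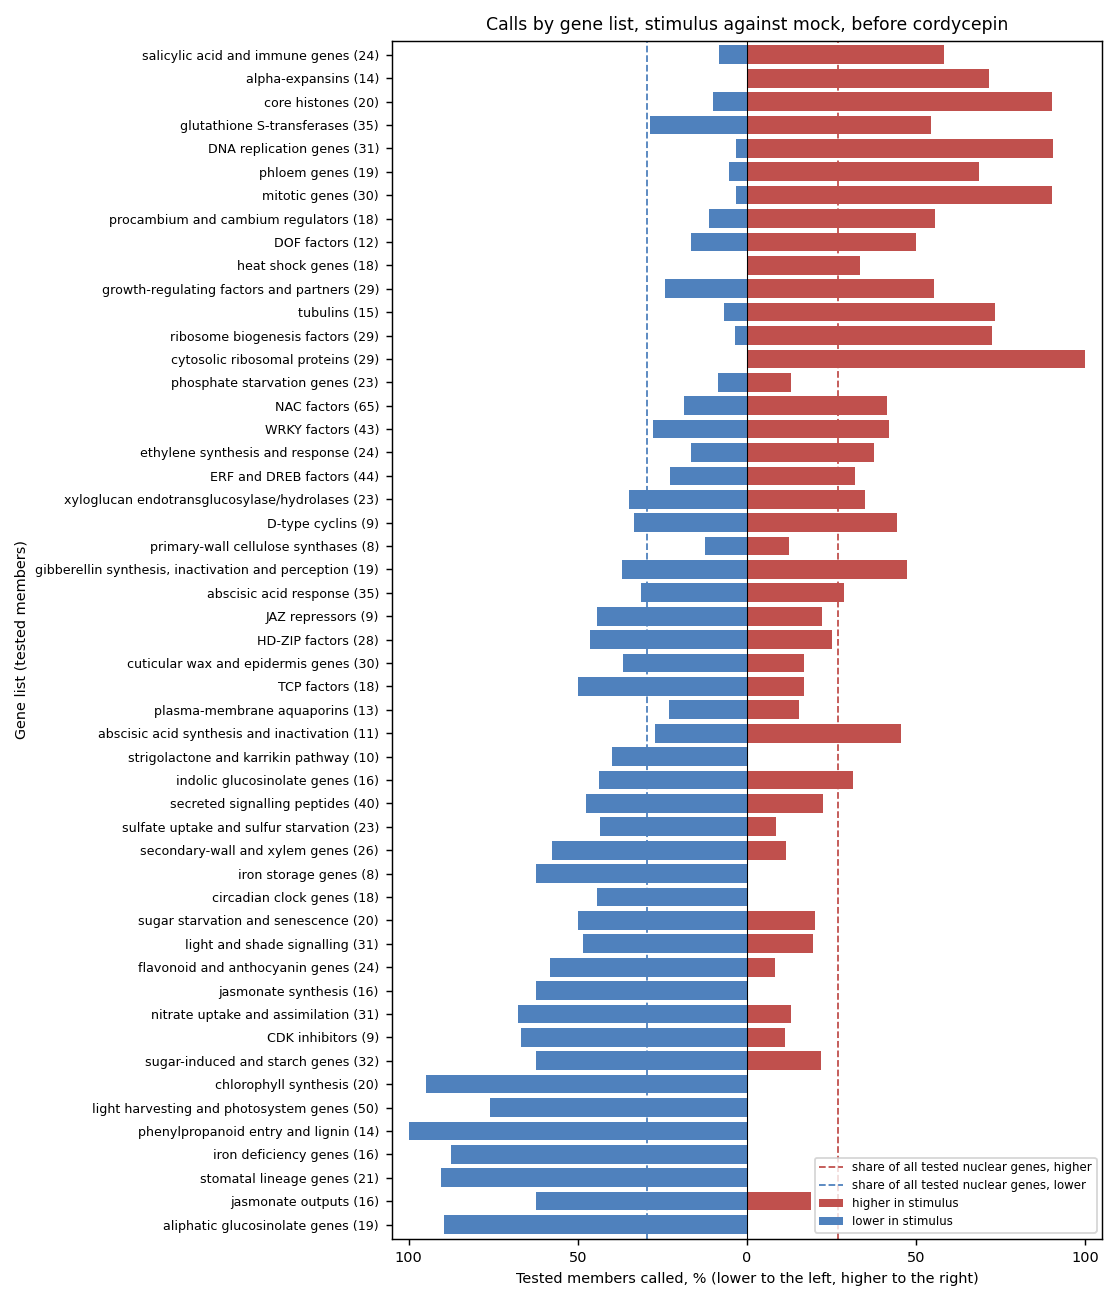
Share of the tested members of each gene list with at least 8 tested members that was called higher (bars to the right) or lower (bars to the left) in stimulus, in percent, ordered by the list's median log2 change. Dashed lines mark the shares among all tested nuclear genes, 26.9% higher and 29.6% lower. All 29 tested cytosolic ribosomal protein genes of the list, which is not the whole family, were higher and all 14 phenylpropanoid genes were lower.

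Cell division genes rose. Among genes that copy DNA, 28 of the 31 tested rose and 1 fell, with a median log2 change of 1.19. MCM5, a subunit of the replicative helicase, stood at 25.6, 21.7 and 22.7 CPM in mock and 48.3, 46.3 and 49.8 CPM in stimulus. It rose by 1.04 ± 0.08 (SE), with an edgeR adjusted p of 9.89e-06, and the 2 groups were well apart. PCNA1, the sliding clamp of DNA polymerase, stood at 11.8, 8.47 and 10.0 CPM in mock and 29.5, 31.8 and 29.7 CPM in stimulus. That was a rise of 1.59 ± 0.12 (adjusted p 6.39e-06), again with no overlap. TSO2, a small subunit of ribonucleotide reductase, had 59.8, 39.2 and 56.2 CPM in mock and 139, 145 and 114 CPM in stimulus. It rose by 1.36 ± 0.17 (adjusted p 2.25e-04), and the lowest stimulus library lay above the highest mock library. DEL1, an atypical E2F factor, rose by 1.704 ± 0.12. The exception was RNR2A, another ribonucleotide reductase subunit, with 30.6, 32.5 and 31.4 CPM in mock and 10.6, 9.65 and 8.97 CPM in stimulus. Its fall of 1.69 ± 0.09 is uncertain, because its gene overlaps AT3G23570 on the opposite strand, which itself had a log2 change of -3.64. Without mock replicate 3 the list again had 28 members called higher and 1 lower.

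Core histones, which package newly made DNA, rose for 18 of 20 tested members, and the other 2 fell. HTA1, an H2A histone also known as RAT5, stood at 14.4, 8.03 and 12.4 CPM in mock and 58.9, 63.4 and 56.8 CPM in stimulus. It rose by 2.36 ± 0.19 (adjusted p 3.12e-05), with all stimulus libraries above all mock libraries. The 3 tested histones of the H2A.W kind, which mark heterochromatin, went different ways. HTA6 rose by 2.09 ± 0.08, whereas HTA7 fell by 0.49 ± 0.09 and HTA12 by 0.80 ± 0.16. HTA7 was not called with total counts (adjusted p 0.0755). Histone genes have near-identical copies, so the split of reads among them is uncertain.

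Mitotic genes rose for 27 of 30 members, with a median of 0.89. CDKB1;1, a plant-specific mitotic kinase, stood at 3.37, 2.50 and 2.52 CPM in mock and 10.1, 9.59 and 10.7 CPM in stimulus. The rise was 1.86 ± 0.14 (adjusted p 8.82e-06), and each stimulus library was well above every mock library. CYCA1;1, an A-type cyclin, had 6.67, 6.28 and 5.71 CPM in mock and 26.2, 31.0 and 21.8 CPM in stimulus and rose by 2.08 ± 0.14. KNOLLE, the syntaxin of cell plate formation that RefSeq lists as SYP111, had 9.72, 12.9 and 10.3 CPM in mock and 16.8, 20.4 and 17.3 CPM in stimulus. It rose by 0.73 ± 0.13 (adjusted p 0.00109), and the groups did not overlap. The list had 28 members with all stimulus libraries on the upper side. CYCA2;3 was called lower, by 0.32 ± 0.09, but not without mock replicate 4, stimulus replicate 3 or stimulus replicate 4 (adjusted p 0.0529, 0.0720 and 0.0710).

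Upstream of these, D-type cyclins, which link hormones to entry into the cycle, were split. Of 9 tested, 4 rose and 3 fell. CYCD1;1 stood at 11.8, 12.5 and 11.7 CPM in mock and 0.868, 0.941 and 0.761 CPM in stimulus, a fall of 3.80 ± 0.14 (adjusted p 3.30e-07). The stimulus libraries were close to each other and far below mock. CYCD3;1, a cytokinin-responsive cyclin, had 11.9, 12.8 and 13.3 CPM in mock and 26.2, 26.6 and 23.95 CPM in stimulus and rose by 1.01 ± 0.08. CYCD5;1 was called lower with all libraries (adjusted p 0.0421) but lost the call in each fit without 1 library except that without mock replicate 4, with an adjusted p of 0.118 without mock replicate 3. Inhibitors of cyclin-dependent kinases fell for 6 of 9 tested members, while SMR4 rose by 2.11 ± 0.42 (adjusted p 0.00234) from 3 to 10 counts per mock library. KRP2 had 7.05, 8.81 and 7.32 CPM in mock and 1.33, 1.24 and 1.36 CPM in stimulus, which was a fall of 2.56 ± 0.15. SMR1, also called LGO and known for its part in endoreduplication, had 28.2, 27.0 and 27.2 CPM in mock and 7.03, 7.01 and 3.74 CPM in stimulus and fell by 2.21 ± 0.21. In KRP2 and SMR1 every stimulus library lay below every mock library.

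**Figure D2:**
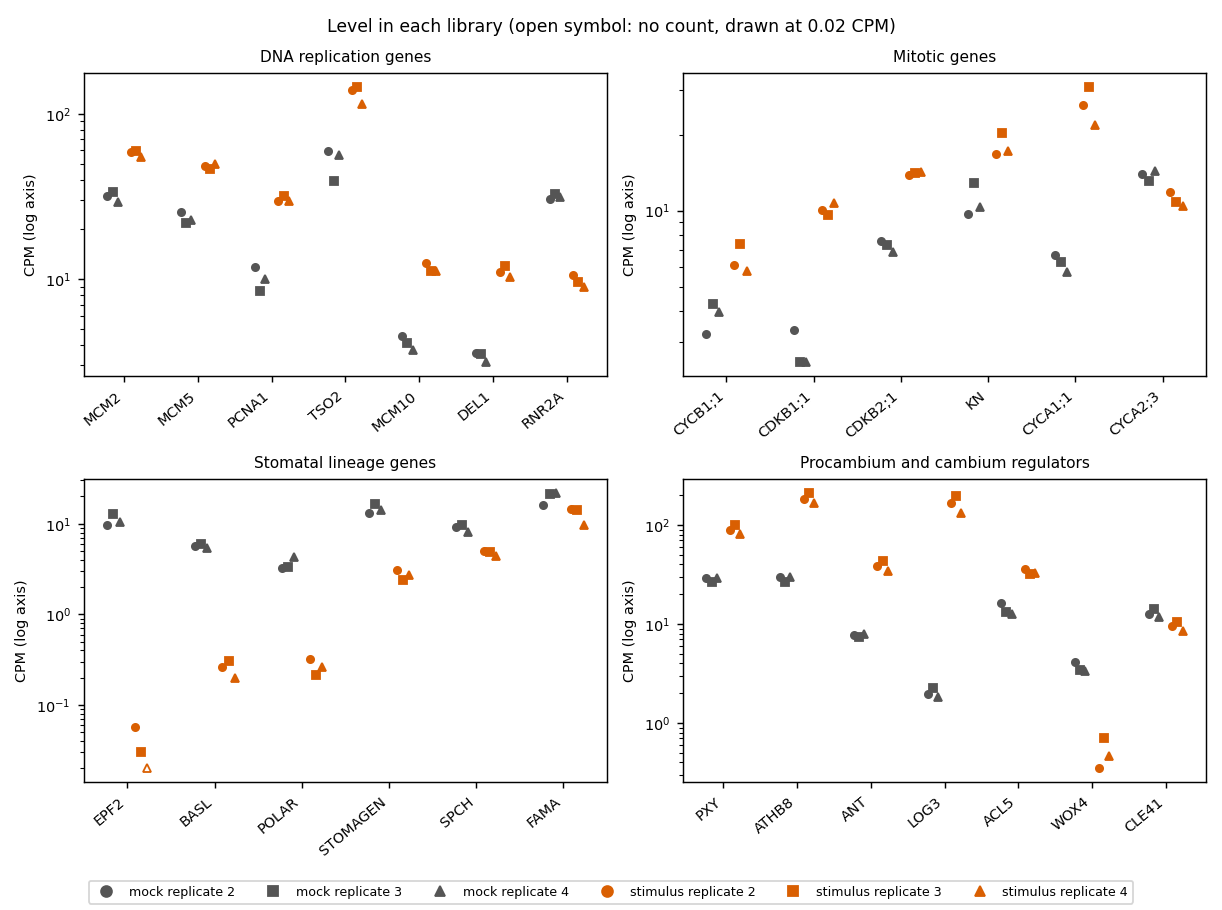
Level of named members of 4 gene lists in each library, in CPM on a log axis, with mock in grey and stimulus in orange and a symbol for each replicate. The open symbol marks EPF2 in stimulus replicate 4, which had no count and is drawn at 0.02 CPM. MCM5 lies at 21.7 to 25.6 CPM in mock and at 46.3 to 49.8 CPM in stimulus, while the stomatal gene BASL lies below 0.4 CPM in every stimulus library.

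Promoters of the division genes were read from the RefSeq genome (TAIR10.1) as 300 bases, from 250 before to 50 after the annotated gene start. The E2F motif was searched as TTTCCCGC, TTTGGCGC or TTTGCCGC on both strands. It was present in 12 of 31 DNA replication promoters (38.7%), in 1 of 20 core histone promoters (5%) and in 1.55% of all 27443 protein-coding promoters. The core AACGG of the mitosis-specific activator, searched on both strands, was present in 19 of 30 mitotic promoters (63.3%) and in 24.7% of all. A match is a description of the letters and not of binding. The promoters printed here belong to a helicase subunit, the catalytic subunit of DNA polymerase alpha (ICU2), a B-type cyclin (CYCB1;2, which RefSeq calls CYC1BAT) and KNOLLE, chosen to show 1 to 5 matches in genes that rose. Capitals mark the motif on either strand.
MCM5: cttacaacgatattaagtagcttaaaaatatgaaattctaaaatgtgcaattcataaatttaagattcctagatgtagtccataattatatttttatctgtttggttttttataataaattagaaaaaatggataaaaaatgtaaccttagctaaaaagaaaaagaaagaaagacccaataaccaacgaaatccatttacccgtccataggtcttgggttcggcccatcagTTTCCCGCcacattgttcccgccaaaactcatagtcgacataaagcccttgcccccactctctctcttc
ICU2: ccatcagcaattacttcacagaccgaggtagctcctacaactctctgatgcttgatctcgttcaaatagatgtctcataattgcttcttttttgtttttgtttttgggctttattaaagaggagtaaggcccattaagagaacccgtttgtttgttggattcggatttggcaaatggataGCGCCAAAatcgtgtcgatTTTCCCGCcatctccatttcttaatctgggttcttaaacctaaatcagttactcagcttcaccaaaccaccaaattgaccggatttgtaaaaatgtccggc
CYC1BAT: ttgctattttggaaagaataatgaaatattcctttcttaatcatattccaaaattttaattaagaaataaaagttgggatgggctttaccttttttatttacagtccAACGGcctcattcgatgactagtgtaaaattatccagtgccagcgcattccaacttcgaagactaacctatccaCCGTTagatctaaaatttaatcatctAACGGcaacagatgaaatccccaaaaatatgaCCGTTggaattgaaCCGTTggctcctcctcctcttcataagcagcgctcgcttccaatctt
SYP111: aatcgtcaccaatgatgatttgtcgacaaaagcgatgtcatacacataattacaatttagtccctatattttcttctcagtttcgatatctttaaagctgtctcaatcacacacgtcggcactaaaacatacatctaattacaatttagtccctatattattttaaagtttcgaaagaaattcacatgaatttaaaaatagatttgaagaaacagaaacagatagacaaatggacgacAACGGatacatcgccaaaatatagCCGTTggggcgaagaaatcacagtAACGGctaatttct
They lie at chr2:3527451-3527750 on the minus strand, chr5:26776703-26777002 on the plus strand, chr5:1861654-1861953 on the minus strand and chr1:2710951-2711250 on the minus strand. ICU2 rose by 1.15 ± 0.08 and CYCB1;2 by 0.74 ± 0.13.

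All 29 tested cytosolic ribosomal protein genes of the list rose, with a median log2 change of 0.42, against 26.9% of all genes called higher. The list held only genes matched by RefSeq names and is not the whole family. RPL10C, a protein of the large subunit listed as SAG24, stood at 201, 227 and 238 CPM in mock and 509, 533 and 493 CPM in stimulus. It rose by 1.203 ± 0.10 (adjusted p 1.19e-05), and was the member with the largest rise. Only 3 of the 29 passed a test for a change beyond 1.5-fold. Without stimulus replicate 4, 26 were called higher, and without mock replicate 3 all 29 were. Of 29 ribosome biogenesis factors 21 rose and 1 fell. Fibrillarin 2 (FIB2), which methylates ribosomal RNA, had 33.2, 28.8 and 33.5 CPM in mock and 69.9, 73.4 and 79.995 CPM in stimulus. Its rise was 1.23 ± 0.09 (adjusted p 5.75e-06), with mock and stimulus far apart relative to their spread. NUC-L1, the main nucleolin, rose by 0.49 ± 0.10 and the snoRNP protein NOP56 by 0.94 ± 0.10. REIL1, a factor of late 60S maturation, was called lower, by 0.26 ± 0.07, but not without stimulus replicate 3 or 4 (adjusted p 0.0517 and 0.0592). APUM23, a ribosomal RNA processing factor, was not called (log2 change 0.18, adjusted p 0.0658) but was called higher without mock replicate 4 (adjusted p 0.0472) and with total counts (adjusted p 0.00126). Ribosomal protein genes come in near-identical pairs, so the values of single copies are uncertain.

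The site II element, searched as TGGGCC on both strands, was present in 18 of 29 ribosomal protein promoters (62.1%) and in 15.5% of all promoters. The telo-box, searched as AAACCCTA on both strands, was present in 14 of the 29 (48.3%) and in 6.22% of all. Among the biogenesis factors, which were added to this search after their values were seen, the shares were 55.2% and 37.9%. Promoters of 2 ribosomal protein genes that rose are shown with their telo-boxes in capitals, as examples with 2 matches each.
RPS5A: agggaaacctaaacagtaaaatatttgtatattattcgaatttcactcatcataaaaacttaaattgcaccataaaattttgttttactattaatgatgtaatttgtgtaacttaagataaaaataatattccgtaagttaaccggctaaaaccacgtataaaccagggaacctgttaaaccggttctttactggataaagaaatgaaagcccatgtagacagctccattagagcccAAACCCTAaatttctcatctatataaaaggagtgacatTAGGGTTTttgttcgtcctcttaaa
RPL27AB: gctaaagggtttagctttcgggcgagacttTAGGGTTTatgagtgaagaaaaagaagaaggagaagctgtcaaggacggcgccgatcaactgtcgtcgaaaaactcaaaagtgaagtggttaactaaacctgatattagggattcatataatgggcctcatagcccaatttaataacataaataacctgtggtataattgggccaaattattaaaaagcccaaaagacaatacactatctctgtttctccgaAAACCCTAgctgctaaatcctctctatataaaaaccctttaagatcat
They lie at chr3:3779496-3779795 on the minus strand and chr1:8262675-8262974 on the plus strand. RPS5A, a 40S protein strongly expressed in dividing cells, rose by 0.66 ± 0.14 and RPL27AB by 0.41 ± 0.08.

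Wall-loosening expansins mostly rose and xyloglucan endotransglucosylases were split, while few genes of primary-wall cellulose were called. Of 14 alpha-expansins, which loosen walls at low pH, 10 rose and none fell by the edgeR fit at adjusted p under 0.05. EXPA8 stood at 8.68, 5.096 and 4.84 CPM in mock and 35.04, 39.2 and 37.3 CPM in stimulus. That rise of 2.58 ± 0.21 (adjusted p 2.89e-05) put every stimulus library at least 4-fold above the highest mock library. EXPA1, the most abundant of those named, had 259, 285 and 258 CPM in mock and 711, 700.0 and 727 CPM in stimulus and rose by 1.42 ± 0.09. Xyloglucan endotransglucosylases, which cut and rejoin wall chains, were split at 8 higher and 8 lower of 23. XTH19 had 27.6, 28.1 and 23.1 CPM in mock and 362, 418 and 275 CPM in stimulus, and XTH6 had 31.5, 24.8 and 28.5 CPM in mock and 1.22, 1.37 and 2.08 CPM in stimulus. The first rose by 3.74 ± 0.17 and the second fell by 4.19 ± 0.19, with no overlap in either. TCH4, a touch-induced member, had 10.1, 36.2 and 10.1 CPM in mock and 4.40, 7.25 and 5.36 CPM in stimulus. Mock replicate 3 was over 3 times as high as the other mock libraries. TCH4 was called lower, by 1.73 ± 0.59, with a log2 change of -0.84 without that library, and was not called without stimulus replicate 2, 3 or 4 (adjusted p 0.133, 0.0709 and 0.145). Of 8 genes for primary-wall cellulose, 1 rose and 1 fell, or 2 without mock replicate 3. CESA1 (log2 change 0.19, adjusted p 0.118) and CESA3 (0.04, adjusted p 0.743) were not called with TMM and were called higher with total counts (log2 changes of 0.44 and 0.29).

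Tubulins, the subunits of microtubules, rose for 11 of 15 members, led by TUB7 with a rise of 1.45 ± 0.08, while TUB5 fell by 1.24 ± 0.11. Tonoplast aquaporins carry water into the vacuole. TIP2;1 had 35.1, 15.8 and 29.6 CPM in mock and 218, 187 and 216 CPM in stimulus, a rise of 2.95 ± 0.28 (adjusted p 1.40e-04). Mock replicate 3 was the lowest of the 6 libraries, and the groups did not overlap. In plasma-membrane aquaporins, 2 of 13 rose and 3 fell, and without mock replicate 3 the number lower was 8. Mock replicate 3 was the lowest mock library for 12 of these 13 genes. A list of organ growth regulators held growth-regulating factors (GRF), their interacting factors (GIF), TCP and AINTEGUMENTA-like factors and genes such as ARGOS and DA1. Of 29 tested, 16 rose and 7 fell. Of its 10 GRF and GIF genes, 6 rose and 1 fell. GIF1, also called AN3, is the coactivator with which growth-regulating factors work. It stood at 0.347, 0.371 and 0.638 CPM in mock and 3.27, 4.80 and 5.16 CPM in stimulus, a rise of 3.27 ± 0.29 (adjusted p 1.99e-05). CYP78A7, a relative of the organ size gene KLU, had 2.78, 1.21 and 1.91 CPM in mock and 32.4, 28.7 and 27.5 CPM in stimulus and rose by 3.91 ± 0.23. TCP15, a class I TCP factor, had 12.6, 12.7 and 12.3 CPM in mock and 2.29, 2.97 and 3.08 CPM in stimulus and fell by 2.18 ± 0.13. In all 3 the groups lay apart.

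Among vascular genes, more regulators of procambium and cambium and more phloem genes rose than fell, while more secondary-wall and xylem genes fell than rose. Among procambium and cambium regulators, 10 of 18 rose and 2 fell. ATHB8, an HD-ZIP III factor of procambial cells listed as HB-8, had 30.1, 26.3 and 29.8 CPM in mock and 184, 210.4 and 167 CPM in stimulus. It rose by 2.71 ± 0.11 (adjusted p 4.56e-07), and its lowest stimulus library was over 5 times its highest mock library. LOG3 releases active cytokinin, so it is itself a cytokinin gene, although it is counted in this list. It had 1.98, 2.26 and 1.85 CPM in mock and 166, 198 and 132 CPM in stimulus and rose by 6.35 ± 0.19. PXY, the receptor that keeps cambium dividing, had 29.3, 26.6 and 29.0 CPM in mock and 90.0, 99.3 and 80.9 CPM in stimulus and rose by 1.67 ± 0.09. WOX4, a homeobox factor that acts downstream of PXY, stood at 4.17, 3.44 and 3.33 CPM in mock and 0.347, 0.698 and 0.463 CPM in stimulus. It fell by 2.85 ± 0.27 (adjusted p 2.64e-05), with no overlap. CLE41, which encodes the peptide that PXY binds, fell by 0.43 ± 0.12 with TMM and was not called with total counts (adjusted p 0.253). TMO5, which starts vascular divisions, was not called (log2 change -0.16, adjusted p 0.532).

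Of 19 phloem genes 13 rose and 1 fell, around a median of 1.06, or 0.91 without mock replicate 3. NAC020, a factor of early sieve elements, had 0.104, 0.101 and 0.235 CPM in mock and 6.39, 4.95 and 4.20 CPM in stimulus. That was a rise of 5.1005 ± 0.33 (adjusted p 2.97e-06) from 3 to 7 counts per mock library. SMXL5, which promotes phloem formation, had 13.8, 15.2 and 15.5 CPM in mock and 126, 154 and 107 CPM in stimulus and rose by 3.13 ± 0.14. SUC2, the sucrose carrier of companion cells, had 43.0, 28.4 and 38.2 CPM in mock and 84.5, 71.0 and 73.5 CPM in stimulus and rose by 1.06 ± 0.15. Other companion cell markers moved otherwise: SULTR2;1 fell by 3.62 ± 0.32 and the proton pump AHA3 by 0.47 ± 0.10, the latter not called with total counts (adjusted p 0.0928). APL, a master regulator of phloem identity, was not called (log2 change 0.08, adjusted p 0.595), though it was called higher with total counts (adjusted p 0.0489). The 4 companion cell markers summed to 169 to 196 CPM in mock and 170.3 to 206 CPM in stimulus.

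Of 26 secondary-wall and xylem genes 15 fell and 3 rose. This count depended on single libraries and on scaling: leaving out 1 library gave 9 to 14 lower, with 9 without mock replicate 4, 10 without stimulus replicate 4 and 14 without mock replicate 3, and total counts gave 6. The VND genes, NAC factors that switch on vessel formation, went both ways. The 3 that rose were VND1, VND2 and VND3, the last not called without mock replicate 2 or stimulus replicate 2 (adjusted p 0.0590 and 0.0674). VND4 fell by 0.78 ± 0.16 (adjusted p 0.00316) and VND5 by 1.78 ± 0.29 (adjusted p 6.86e-04). VND2 had 3.82, 5.40 and 4.03 CPM in mock and 19.2, 26.0 and 16.5 CPM in stimulus, and rose by 2.22 ± 0.20 (adjusted p 3.77e-05). VND7, the factor of protoxylem vessels, stood at 0.694, 1.05 and 0.941 CPM in mock and 1.13, 1.06 and 0.926 CPM in stimulus. These ranges overlapped, and VND7 was not called (adjusted p 0.504). MYB46, which acts downstream of these factors, had 2.36, 1.65 and 1.68 CPM in mock and 1.099, 0.971 and 1.06 CPM in stimulus and fell by 0.86 ± 0.24. LAC4, a laccase of lignin formation, fell by 0.96 ± 0.13. The 4 xylem markers summed to 47.5 to 62.2 CPM in mock and 41.5 to 45.5 CPM in stimulus, and 3 of them were called lower, or 1 to 3 with 1 library left out and none with total counts by the edgeR fit.

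The stomatal lineage was lower at almost every step: 19 of 21 genes fell and none rose at adjusted p under 0.05 in the edgeR fit, against 29.6% of all genes called lower. The median log2 change was -1.61, and -1.64 without mock replicate 3, where 19 were again called lower. SPCH, which starts the lineage, stood at 9.16, 9.68 and 8.06 CPM in mock and 5.06, 4.89 and 4.37 CPM in stimulus. It fell by 0.91 ± 0.12 (adjusted p 2.33e-04), and the groups did not overlap. Its partner SCRM2 fell by 1.74 ± 0.10 and MUTE, which ends the asymmetric divisions, by 2.22 ± 0.27. BASL, which marks the polarity of those divisions, had 5.62, 5.97 and 5.37 CPM in mock and 0.260, 0.304 and 0.198 CPM in stimulus. That was a fall of 4.45 ± 0.21 (adjusted p 6.59e-07), with at most 0.304 CPM in stimulus.

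EPF2, a secreted peptide that limits entry into the lineage, stood at 9.69, 13.0 and 10.3 CPM in mock and 0.0579, 0.0304 and 0 CPM in stimulus. The stimulus libraries held 0 to 2 counts each against 279 to 384 in mock, and the edgeR adjusted p was 4.87e-07. STOMAGEN, a mesophyll peptide that promotes stomata, had 13.2, 16.4 and 14.2 CPM in mock and 3.096, 2.398 and 2.75 CPM in stimulus and fell by 2.404 ± 0.14. TMM, the receptor-like protein that receives such peptides, fell by 2.89 ± 0.21. Some genes of guard cells fell too. The guard cell channel KAT1 fell by 1.07 ± 0.14 and the factor MYB60 by 1.08 ± 0.14. HT1, also a guard cell marker, was not called (log2 change -0.49, adjusted p 0.0870). FAMA, the factor of guard cell fate, had 15.9, 21.3 and 21.8 CPM in mock and 14.5, 14.4 and 9.76 CPM in stimulus. It was called lower (adjusted p 0.0188) but not without mock replicate 3 or 4 (adjusted p 0.0586 and 0.0607). YDA, a kinase with many roles outside stomata, was not called (log2 change -0.10, adjusted p 0.424) except without mock replicate 3, where its log2 change was -0.20 (adjusted p 0.0419). The 4 guard cell markers summed to 37.6 to 48.7 CPM in mock and 22.2 to 26.8 CPM in stimulus, and the part of guard cell number in the stomatal results was not tested. Among the leading falls of the whole comparison was also AT2G40435, annotated as a SCREAM-like factor, with 13.5, 11.5 and 12.4 CPM in mock and 0, 0.0304 and 0 CPM in stimulus. Its stimulus libraries held 0, 1 and 0 counts, so no fold is given (adjusted p 2.90e-07).

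Cuticle and epidermis genes moved both ways. Of 30 tested, 5 rose (16.7%) and 11 fell (36.7%). CER1, which makes alkanes of the wax, had 133, 77.2 and 114 CPM in mock and 221, 219 and 236 CPM in stimulus and rose by 1.06 ± 0.18. KCS6, an elongase of wax fatty acids, had 136, 107 and 141 CPM in mock and 108, 104.7 and 98.9 CPM in stimulus. Its groups overlapped, and its call as lower (log2 change -0.30, adjusted p 0.0424) was lost in each fit without 1 library except that without mock replicate 3 (adjusted p 0.0811 to 0.148). MYB106, a regulator of cuticle and trichomes, fell by 2.42 ± 0.19.

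Photosynthesis genes were lower in stimulus, by an amount that depended on mock replicate 3. Of 50 light harvesting and photosystem genes, 38 were called lower with all libraries and 50 without mock replicate 3, where the median went from -1.12 to -1.44. Mock replicate 3 was the lowest mock library for 48 of the 50. LHCB2.3, a light harvesting protein of photosystem II, stood at 118, 14.1 and 101.3 CPM in mock and 8.04, 8.16 and 7.97 CPM in stimulus. The mock library of replicate 3 lay near the stimulus level, and the log2 change was -3.27 with it and -3.77 without it. With that library kept, the gene was not called without any 1 of the stimulus libraries (adjusted p 0.0553 to 0.0737). LHCB1.1, an abundant antenna protein also called CAB2, had 3670.4, 663 and 2871 CPM in mock and 1199, 988 and 1441 CPM in stimulus. Here mock replicate 3 was below all 3 stimulus libraries, and the gene was called only without it (adjusted p 0.198 with and 2.78e-04 without). PSAN, a photosystem I subunit, had 290.1, 207 and 304 CPM in mock and 66.4, 59.2 and 66.9 CPM in stimulus and fell by 2.06 ± 0.15 (adjusted p 6.81e-06). Its groups did not overlap even with mock replicate 3. RBCS1A, the main small subunit of Rubisco, was called lower, by 0.66 ± 0.20, but not without mock replicate 2, stimulus replicate 2 or stimulus replicate 3 (adjusted p 0.0626, 0.0690 and 0.0797) or with total counts (log2 change -0.40, adjusted p 0.0699). Antenna genes have near-identical copies, so values of single copies are uncertain.

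Chlorophyll synthesis fell for 19 of 20 genes, and for 20 without mock replicate 3. PORB, which reduces protochlorophyllide in light, had 672, 383 and 529.8 CPM in mock and 102, 121 and 118 CPM in stimulus. That was a fall of 2.21 ± 0.20 (adjusted p 3.32e-05), and every stimulus library lay below 130 CPM while mock lay above 380 CPM. GUN5, a subunit of magnesium chelatase, had 1913, 861 and 1858 CPM in mock and 875, 823 and 869 CPM in stimulus. Mock replicate 3 was within the stimulus range, and the log2 change was -0.85 with it and -1.14 without it. Leaving out any other library ended the call of GUN5 (adjusted p 0.0796 to 0.104). Beta carbonic anhydrase 1 (CA1), an abundant mesophyll protein, had 640.0, 702 and 676 CPM in mock and 147, 140.1 and 155 CPM in stimulus and fell by 2.19 ± 0.10. In this gene mock replicate 3 was the highest mock library. As a whole, 4 of the 6 mesophyll markers fell, and all 6 without mock replicate 3. They summed to 15866, 8000 and 13388 CPM in mock and to 6472, 6015 and 7269 CPM in stimulus, and the part of mesophyll content or clock phase in the photosynthesis results was not tested.

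**Figure D3:**
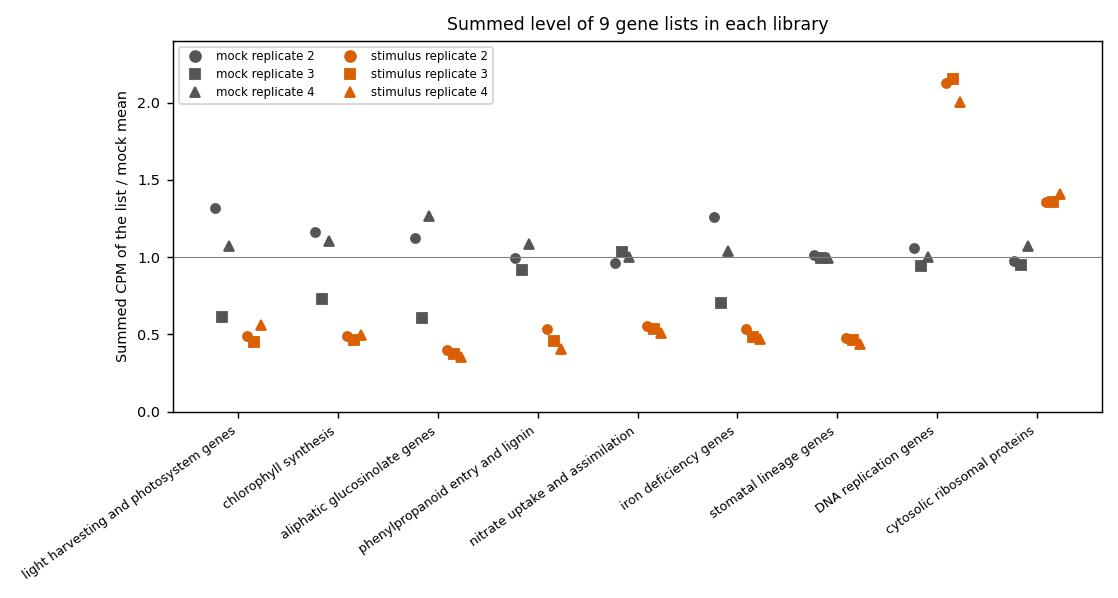
Summed CPM of 9 gene lists in each library, divided by the mean of the 3 mock libraries, with mock in grey and stimulus in orange. For photosystem genes mock replicate 3 stands at 0.61 of the mock mean and the stimulus libraries at 0.45 to 0.56. For stomatal lineage genes the mock libraries stand at 0.99 to 1.01 and the stimulus libraries at 0.44 to 0.48.

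Light signalling genes moved both ways, while clock genes fell or did not pass. Of 31 light and shade genes 6 rose and 15 fell, or 19 without mock replicate 3. PIF7, a bHLH factor of shade growth, had 30.8, 24.6 and 28.0 CPM in mock and 4.95, 4.52 and 5.29 CPM in stimulus and fell by 2.50 ± 0.11. PIF4, its relative in warmth and light responses, had 13.1, 2.6996 and 8.06 CPM in mock and 3.27, 3.07 and 3.97 CPM in stimulus. Mock replicate 3 lay below all stimulus libraries, and PIF4 was called lower only without it (adjusted p 0.0957 with and 4.23e-04 without). PKS4, a phototropin and phytochrome substrate, had 1.46, 0.202 and 0.470 CPM in mock and 18.6, 16.3 and 13.99 CPM in stimulus and rose by 4.53 ± 0.47, or by 5.58 without mock replicate 2. Of 18 clock genes 8 fell, or 11 without mock replicate 3 and 5 without stimulus replicate 3, and none rose in any of these edgeR fits. PRR3, a pseudo-response regulator, had 19.2, 31.0 and 15.96 CPM in mock and 5.90, 5.22 and 4.40 CPM in stimulus and fell by 2.09 ± 0.26, with a log2 change of -1.76 without mock replicate 3. GI was called only without it (adjusted p 0.144 with and 0.00969 without). CCA1 and LHY were not called with or without it, with adjusted p of 0.110 and 0.454 in the second case.

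Genes of other hormone pathways moved both ways. The committed step of ethylene synthesis is catalysed by 1-aminocyclopropane-1-carboxylate synthases (ACS). ACS4 stood at 0.243, 0.337 and 0.101 CPM in mock and 42.1, 37.1 and 21.4 CPM in stimulus and rose by 7.18 ± 0.43 (adjusted p 1.27e-05). ACS5 stood at 0.104, 0.0675 and 0 CPM in mock and 24.4, 22.2 and 13.0 CPM in stimulus. Mock held 0 to 3 counts of ACS5 per library against 394 to 842 in stimulus, so no fold is given (adjusted p 7.40e-06). ACS8 had 0.764, 1.08 and 0.907 CPM in mock and 13.9, 17.42 and 11.7 CPM in stimulus and rose by 3.96 ± 0.20. In each of the 3 genes the lowest stimulus library was stimulus replicate 4. Other genes of that name were lower. ACS2 had 1.84, 2.50 and 1.68 CPM in mock and 0.752, 0.698 and 0.595 CPM in stimulus and fell by 1.55 ± 0.26 (adjusted p 8.12e-04). ACS10, which encodes an aminotransferase, fell by 0.83 ± 0.10 (adjusted p 9.42e-05). ACS12 was called lower, by 0.31 ± 0.10, but not without mock replicate 4 or any 1 stimulus library (adjusted p 0.0614 to 0.109) or with total counts (adjusted p 0.662). Of the receptors, ERS2 rose by 0.60 ± 0.13 and ERS1 fell by 0.53 ± 0.11, the latter not called with total counts (adjusted p 0.0631). ETR2, also a receptor (log2 change 0.21, adjusted p 0.331), and EBF2 (0.16, adjusted p 0.554), both induced by ethylene, were not called. With total counts ETR2 was called higher (adjusted p 0.0365). Of other genes of the list, ERF1 rose by 2.92 ± 0.30 (adjusted p 4.20e-05) and ARGOS by 2.24 ± 0.27 (adjusted p 2.23e-04). In all, 9 of 24 ethylene genes rose and 4 fell. ARGOS and another of the genes that rose are also counted among the organ growth regulators.

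Gibberellin genes moved in both directions, with 9 of 19 higher and 7 lower. GA1, the enzyme of the first committed step, had 0.312, 0.540 and 0.739 CPM in mock and 19.0, 18.7 and 15.1 CPM in stimulus and rose by 5.04 ± 0.22 (adjusted p 5.72e-07). GA3OX1, which makes the bioactive hormone, had 5.00, 2.94 and 2.69 CPM in mock and 0.376, 0.243 and 0.496 CPM in stimulus and fell by 3.25 ± 0.35. GA2OX8, which inactivates precursors, had 1.60, 3.64 and 1.21 CPM in mock and 14.6, 13.2 and 8.17 CPM in stimulus and rose by 2.48 ± 0.42, or by 3.09 without mock replicate 3. All 3 had groups that lay apart. The DELLA repressor RGA1 fell by 1.42 ± 0.12. The receptor GID1A fell by 1.19 ± 0.11, while its relative GID1B rose by 1.28 ± 0.15.

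Abscisic acid genes were split too. NCED3, the rate-limiting enzyme of synthesis under stress, had 8.57, 5.97 and 8.67 CPM in mock and 32.7, 33.4 and 27.1 CPM in stimulus and rose by 2.01 ± 0.15 (adjusted p 9.25e-06). Each stimulus library was over 3 times the highest mock library. The synthesis gene ABA2 fell by 0.70 ± 0.13 (adjusted p 0.00132). Among inactivation genes, CYP707A1 rose by 1.60 ± 0.14 (adjusted p 1.58e-05) and CYP707A4 fell by 2.50 ± 0.39 (adjusted p 5.53e-04). Of the response genes, 10 of 35 rose and 11 fell, near the shares of all genes. COR15B, a cold-induced chloroplast protein, had 62.7, 99.4 and 113 CPM in mock and 7.20, 5.98 and 7.41 CPM in stimulus and fell by 3.74 ± 0.24. AFP3, which binds the factor ABI5, rose by 2.64 ± 0.13. In the strigolactone and karrikin pathway 4 of 10 genes fell, among them the receptor D14 by 1.096 ± 0.10.

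Genes of jasmonate synthesis and output were mostly lower. Of 16 jasmonate synthesis genes 10 fell and none rose by the edgeR fit at adjusted p under 0.05, though 3 rose with total counts. The list also holds JMT and CYP94B3, which convert jasmonate further. LOX2, the lipoxygenase of the first step, had 1275, 856 and 1414 CPM in mock and 295, 240.0 and 170.4 CPM in stimulus. It fell by 2.33 ± 0.25 (adjusted p 1.31e-04), with every stimulus library below every mock library. AOS, the allene oxide synthase, fell by 1.38 ± 0.16. Among JAZ repressors of the pathway, 2 of 9 rose and 4 fell. JAZ9 had 20.8, 25.9 and 23.65 CPM in mock and 2.23, 2.398 and 1.62 CPM in stimulus and fell by 3.49 ± 0.15, whereas JAZ10 rose by 0.94 ± 0.18. Of 16 output genes 10 fell and 3 rose. VSP2, a storage protein of wounded leaves, had 9.93, 3.31 and 12.6 CPM in mock and 0.984, 0.273 and 0.265 CPM in stimulus and fell by 4.05 ± 0.70, with a log2 change of -4.97 without stimulus replicate 2. TAT3, a tyrosine aminotransferase, had 0.868, 1.38 and 1.11 CPM in mock and 36.3, 50.8 and 43.8 CPM in stimulus, and rose by 5.28 ± 0.19 (adjusted p 3.45e-07). The 2 outputs thus went opposite ways, each with no overlap. The G-box CACGTG was present in 1 of 16 output promoters (6.25%) and 2 of 9 JAZ promoters (22.2%), against 7.68% of all.

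Of 24 salicylic acid and immune genes 14 rose and 2 fell, with a median of 1.33. RLP23, a receptor for a peptide of microbes, stood at 0.764, 0.236 and 0.168 CPM in mock and 34.3, 56.0 and 48.2 CPM in stimulus. That was a rise of 6.89 ± 0.40 (adjusted p 1.14e-05), or of 7.81 without mock replicate 2. PAD3, the last enzyme of camalexin synthesis, had 2.01, 1.25 and 6.48 CPM in mock and 33.997, 41.9 and 28.9 CPM in stimulus and rose by 3.42 ± 0.54. CYP71A13, an earlier enzyme of the same compound, had 0.347, 0.169 and 0.840 CPM in mock and 4.601, 6.25 and 4.73 CPM in stimulus and rose by 3.51 ± 0.41. Mock replicate 4 was the highest mock library in both, and the rises were 4.42 for PAD3 and 4.31 for CYP71A13 without it. In these genes the stimulus libraries lay above all mock libraries. SID2, the synthase that supplies salicylic acid, was not called (log2 change 0.46, adjusted p 0.201) except with total counts (adjusted p 0.0443). The regulator PAD4 was not called either (-0.47, adjusted p 0.0551), though it was lower without mock replicate 2 (adjusted p 0.0259). RBOHD, the oxidase of the immune burst, fell by 0.93 ± 0.10 and the kinase BIK1 by 1.03 ± 0.10.

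WRKY factors, many of them immune regulators, rose for 18 of 43 members and fell for 12. WRKY33, which controls camalexin genes, had 22.0, 40.1 and 28.7 CPM in mock and 79.6, 109.7 and 76.1 CPM in stimulus and rose by 1.55 ± 0.24 (adjusted p 0.00150). WRKY23, known from auxin responses, had 7.22, 8.07 and 7.79 CPM in mock and 39.9, 43.8 and 34.9 CPM in stimulus and rose by 2.36 ± 0.11. WRKY40 had 13.5, 42.1 and 11.6 CPM in mock and 6.77, 8.77 and 9.396 CPM in stimulus. Its mock replicate 3 was over 3 times the other mock libraries, and the gene was not called with all libraries (log2 change -1.43, adjusted p 0.0681). It was called lower without mock replicate 3 (-0.60, adjusted p 0.00895) and without mock replicate 4 (-1.75, adjusted p 0.0219). Heat shock genes rose for 6 of 18 with TMM, for 3 to 8 with 1 library left out and for 14 with total counts. The lowest count was without stimulus replicate 3. HSFA2, the main heat stress factor, was not called (log2 change -1.06, adjusted p 0.108), but it was called lower without mock replicate 2 (log2 change -1.47, adjusted p 0.00351).

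Nutrient genes fell in several pathways. Of 16 iron deficiency genes 14 fell and none rose by the edgeR fit, with a median of -1.46. BHLH100, a factor induced when iron is short, had 36.2, 14.5 and 25.8 CPM in mock and 0.550, 0.273 and 0.265 CPM in stimulus, a fall of 6.10 ± 0.49 (adjusted p 6.37e-05). BHLH38, its relative, had 31.4, 4.52 and 22.6 CPM in mock and 5.64, 3.95 and 2.68 CPM in stimulus. Here the mock replicate 3 value of 4.52 CPM lay within the stimulus range, and the log2 change went from -2.24 (adjusted p 0.0399) to -2.71 without it (adjusted p 5.06e-04). Leaving out any other library instead ended the call (adjusted p 0.0615 to 0.134). BTS, which marks iron regulators for breakdown, fell by 0.85 ± 0.18. The reductase FRO3 was called lower only without mock replicate 3 (adjusted p 0.0640 with and 8.20e-04 without), and NAS4, which makes the metal chelator nicotianamine, was not called (adjusted p 0.0524) except higher without mock replicate 3 or 4 (adjusted p 0.00765 and 0.0234) and with total counts (adjusted p 0.0219). The iron storage list held ferritins and also YSL1, YSL2, YSL3 and NEET, which are not storage proteins. Of its 8 genes 5 fell, or 4 without mock replicate 3. Ferritin 1 (FER1) was called lower, by 0.65 ± 0.23, and lost its call in each fit without 1 library except that without stimulus replicate 2 (adjusted p 0.0531 to 0.131).

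Of 31 nitrate genes 21 fell and 4 rose. NIA1, a nitrate reductase, had 178, 209 and 171 CPM in mock and 47.9, 48.7 and 34.9 CPM in stimulus and fell by 2.09 ± 0.14 (adjusted p 5.38e-06). NRT1.1, the nitrate transporter and sensor, had 22.5, 27.0 and 24.8 CPM in mock and 8.80, 7.07 and 6.22 CPM in stimulus and fell by 1.75 ± 0.13. In both the 3 mock libraries were close together, mock replicate 3 included. BT2, a nitrate- and sugar-responsive scaffold protein, had 50.5, 222 and 13.6 CPM in mock and 1.45, 2.82 and 1.92 CPM in stimulus. Mock differed by over 10-fold among its libraries, with replicate 3 the highest, and the log2 change was -5.53 with it and -3.96 without it. BT2 missed the threshold without stimulus replicate 2 or 4 (adjusted p 0.0571 and 0.0609). GLN1;1, a cytosolic glutamine synthetase, rose by 1.92 ± 0.18. LBD39, a repressor of nitrate responses, fell by 3.43 ± 0.43.

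Sulfate genes fell for 10 of 23 and rose for 2. The vascular sulfate transporter SULTR2;2 had 20.4, 23.3 and 20.6 CPM in mock and 3.79, 3.25 and 2.91 CPM in stimulus and fell by 2.69 ± 0.12. SDI1, a marker of sulfur starvation, was not called (log2 change -0.55, adjusted p 0.0653) but was lower without stimulus replicate 2 (adjusted p 0.00656). Without mock replicate 3 the sulfate counts were 12 lower and 4 higher, and without mock replicate 4, stimulus replicate 2 or stimulus replicate 3 only 1 was higher. Most phosphate starvation genes did not pass the test: 3 of 23 rose and 2 fell, or 4 and 4 without mock replicate 3 and 7 and 1 without mock replicate 4. Their median log2 change was 0.23 with mock replicate 3 and 0.02 without it, and that library was the lowest mock library for 21 of the 23. SPX1, a phosphate sensor protein, had 114, 54.5 and 279 CPM in mock and 245, 214 and 132 CPM in stimulus, with the mock values spread on both sides of the stimulus values. It was called higher only without mock replicate 4 (log2 change 1.22, adjusted p 0.0444).

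Sugar and starch genes were lower in 20 of 32 cases and higher in 7. Both buffers held 5.0% glucose, and the part of sugar status inside the leaves was not tested. GBSS1, the granule-bound starch synthase, had 351, 188 and 421 CPM in mock and 88.6, 75.8 and 67.3 CPM in stimulus and fell by 2.05 ± 0.30 (adjusted p 0.00104). GPT2, a glucose-6-phosphate carrier induced by sugar, had 338, 216 and 286 CPM in mock and 125, 121 and 115 CPM in stimulus and fell by 1.22 ± 0.15. SUS3, a sucrose synthase, had 8.44, 5.33 and 8.30 CPM in mock and 18.5, 15.4 and 15.4 CPM in stimulus and rose by 1.16 ± 0.17. The groups were apart in each of the 3. SWEET12, a sucrose exporter of phloem loading, fell by 3.13 ± 0.32 and STP13, a hexose importer, rose by 1.60 ± 0.12. Starvation and senescence genes fell for 10 of 20 and rose for 4. TPS11, a trehalose phosphate synthase relative that falls with sugar, had 10.3, 6.28 and 8.43 CPM in mock and 111, 134 and 116 CPM in stimulus and rose by 3.85 ± 0.17. NYC1, which breaks down chlorophyll b, had 62.8, 165 and 81.7 CPM in mock and 33.0, 30.7 and 29.1 CPM in stimulus. It fell by 1.73 ± 0.37 with mock replicate 3 and had a log2 change of -1.22 without it.

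All 14 tested genes of phenylpropanoid entry and lignin fell, with and without mock replicate 3. PAL1, phenylalanine ammonia lyase of the entry step, stood at 350.0, 349 and 437 CPM in mock and 235, 199 and 162 CPM in stimulus. It fell by 0.93 ± 0.15 (adjusted p 7.39e-04), and PAL2 by 1.76 ± 0.19. C4H, the next enzyme, had 255, 228 and 294 CPM in mock and 146, 127 and 113 CPM in stimulus and fell by 1.01 ± 0.13. Every stimulus library lay below every mock library in these genes. Flavonoid genes fell for 14 of 24 and rose for 2. The 2 that rose, CPC and EGL3, are epidermal regulators and were not called without mock replicate 2, stimulus replicate 2 or stimulus replicate 3 (adjusted p 0.0679, 0.0867 and 0.112 for CPC, and 0.0520, 0.0595 and 0.0754 for EGL3). MYB75, a regulator of anthocyanin, had 29.0, 36.7 and 55.5 CPM in mock and 13.4, 9.86 and 7.54 CPM in stimulus and fell by 1.97 ± 0.30. TT4, chalcone synthase, had 387, 290.3 and 542 CPM in mock and 365, 319 and 299.6 CPM in stimulus. The groups overlapped through mock replicate 3, and TT4 was called lower only without it (adjusted p 0.245 with and 0.0236 without).

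Aliphatic glucosinolates, made from methionine, had the largest median fall of the lists, at -2.69 and -3.12 without mock replicate 3. Of 19 genes 17 fell, and 19 without that library, which was the lowest mock library for all 19. MYB28, a main regulator, had 33.2, 23.7 and 30.0 CPM in mock and 8.45, 6.98 and 5.26 CPM in stimulus and fell by 2.07 ± 0.19 (adjusted p 3.95e-05). MYB29, its partner, had 6.18, 2.50 and 7.02 CPM in mock and 0.0579, 0 and 0.0331 CPM in stimulus, with 0 to 2 counts per stimulus library (adjusted p 6.15e-05). CYP79F1, the enzyme that commits chain-elongated methionine, had 18.16, 4.56 and 18.9 CPM in mock and 0.260, 0.243 and 0.331 CPM in stimulus. Its log2 change was -5.63 with all libraries and -6.05 without mock replicate 3, which was the lowest mock library and still above all stimulus libraries. MAM1, of chain elongation, fell by 4.36 ± 0.64.

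Indolic glucosinolates, made from tryptophan, were split at 5 higher and 7 lower of 16. The regulator MYB34 had 26.1, 24.3 and 25.7 CPM in mock and 3.27, 2.85 and 2.78 CPM in stimulus and fell by 3.09 ± 0.10 (adjusted p 2.45e-07). Its relative MYB51 had 1.81, 2.13 and 2.42 CPM in mock and 4.54, 6.98 and 7.74 CPM in stimulus and rose by 1.60 ± 0.22. The 2 regulators thus went opposite ways with no overlap in either. CYP79B2, which makes indole-3-acetaldoxime for these compounds and for camalexin, fell by 2.81 ± 0.49. Glutathione S-transferases, which detoxify foreign compounds, rose for 19 of 35 and fell for 10. GSTF2 had 24.5, 17.38 and 25.0 CPM in mock and 221, 247 and 228 CPM in stimulus and rose by 3.38 ± 0.14, while GSTU27 had 31.0, 38.0 and 33.0 CPM in mock and 1.91, 1.58 and 2.02 CPM in stimulus and fell by 4.21 ± 0.13.

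Transcription factor families changed in both directions. NAC factors rose for 27 of 65 members and fell for 12, led by NAC020 and by NAC036 with 2.05, 1.99 and 2.18 CPM in mock and 36.5, 63.3 and 35.7 CPM in stimulus. DOF factors rose for 6 of 12, while OBP4 fell by 1.22 ± 0.16 (adjusted p 1.78e-04). OBP2 was called lower, by 0.37 ± 0.10, but not without stimulus replicate 3 or with total counts (adjusted p 0.0597 and 0.334). TMO6, a DOF factor of vascular cells, had 13.6, 13.8 and 14.3 CPM in mock and 172, 169.8 and 138 CPM in stimulus and rose by 3.52 ± 0.11. OBP1, which acts on the cell cycle, had 2.50, 2.06 and 1.88 CPM in mock and 27.8, 28.6 and 22.4 CPM in stimulus and rose by 3.61 ± 0.15. TCP factors, by contrast, fell for 9 of 18 and rose for 3. TCP7 had 39.4, 40.7 and 43.0 CPM in mock and 9.20, 6.89 and 7.11 CPM in stimulus and fell by 2.404 ± 0.12. HD-ZIP factors fell for 13 of 28 and rose for 7. HB17 had 0.208, 0.169 and 0.134 CPM in mock and 13.3, 14.4 and 9.96 CPM in stimulus and rose by 6.17 ± 0.25, and HB5 had 83.9, 92.5 and 73.0 CPM in mock and 9.03, 9.11 and 6.09 CPM in stimulus and fell by 3.36 ± 0.17. ERF and DREB factors had 14 of 44 higher and 10 lower, close to all genes. Secreted signalling peptides fell for 19 of 40 and rose for 9. CLE25, a peptide of phloem cells, had 2.118, 2.33 and 2.02 CPM in mock and 19.3, 19.2 and 15.7 CPM in stimulus and rose by 3.07 ± 0.13.

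Among all nuclear genes outside the 3 hormone lists, the largest rises and falls included genes of no list. AT5G66940, annotated as a Dof-type zinc finger factor, stood at 0, 0.0675 and 0.0336 CPM in mock and 14.2, 14.8 and 9.59 CPM in stimulus. With 0 to 2 counts per mock library no fold is given, and the edgeR adjusted p was 8.35e-07. PNP-A, a secreted peptide with effects on water balance, had 0.729, 0.506 and 0.336 CPM in mock and 29.0, 50.9 and 37.5 CPM in stimulus and rose by 6.22 ± 0.32. GolS2, a galactinol synthase of drought responses, had 0.486, 0.135 and 0.302 CPM in mock and 15.0, 16.5 and 16.9 CPM in stimulus and rose by 5.70 ± 0.25. SLAH2, a nitrate-permeable anion channel, had 0.243, 0.270 and 0.470 CPM in mock and 14.7, 17.7 and 15.6 CPM in stimulus and rose by 5.59 ± 0.20. The largest falls included AT5G22580, a protein with an A/B barrel domain, with 22.6, 14.3 and 18.0 CPM in mock and 0.116, 0.182 and 0.0662 CPM in stimulus. It fell by 7.17 ± 0.30, to 2 to 6 counts per stimulus library. The subtilase ATSBT5.2 had 17.8, 8.57 and 15.1 CPM in mock and 0.318, 0.212 and 0.198 CPM in stimulus and fell by 5.80 ± 0.38. MYB48 had 9.89, 19.0 and 8.40 CPM in mock and 0.376, 0.455 and 0.364 CPM in stimulus and fell by 4.95 ± 0.41. In each of the genes of this paragraph the groups did not overlap, which the rule that chose them required.

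Leaving out mock replicate 3 kept most calls. Of the 11325 genes called with all 6 libraries, 10577 were called in the same direction without it and 0 had the opposite sign, while 740 were called only without it. Photosystem, chlorophyll, aliphatic glucosinolate and plasma-membrane aquaporin genes gained calls. The median of mitotic genes went from 0.89 to 0.96, that of ribosomal protein genes from 0.42 to 0.39 and that of alpha-expansins from 1.28 to 1.23.

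**Figure D4:**
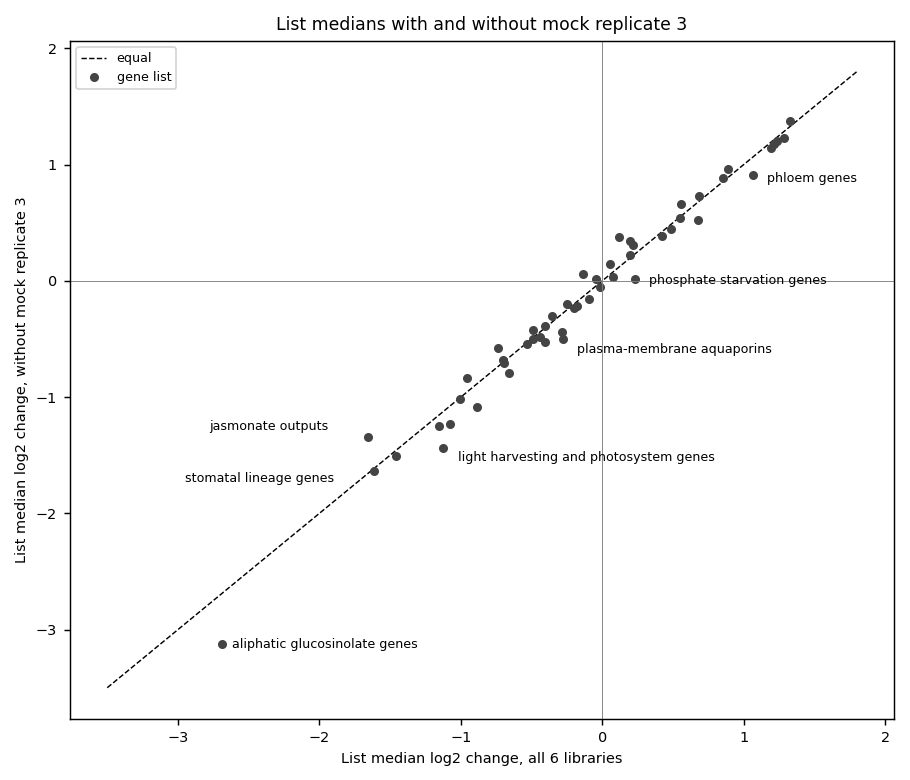
Median log2 change of each gene list with at least 8 tested members, with all 6 libraries on the horizontal axis and without mock replicate 3 on the vertical axis, where the dashed line marks equal values. Aliphatic glucosinolate genes moved from -2.69 to -3.12 and photosystem genes from -1.12 to -1.44, while stomatal lineage genes moved from -1.61 to -1.64.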

How the data were processed

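RNA of 6 leaf libraries, 3 mock and 3 stimulus at 0 min, was compared from a table of raw read counts per annotated feature deposited by the authors. The submitters' processing notes name TopHat2, Bowtie2 and the build TAIR10, and the counter, annotation and strand setting are not given in the sources used here. Replicates were separate columns. Symbols were matched by locus tag in RefSeq TAIR10.1 for 37751 of 38194 features, and 7050 nuclear genes had no count.

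Counts of the 6 libraries were filtered with filterByExpr and scaled by TMM. They were tested with edgeR 4.0.16 (R 4.3.3, limma 3.58.1) by a robust quasi-likelihood fit without a replicate block, with Benjamini-Hochberg adjustment over all 20323 features fitted. The SE is the absolute log2 change divided by the square root of F. In simulated data with 200 of 20169 genes changed by a log2 of 1, the fit called 170 of them and also 19 genes that had not changed. In the real comparison 56.5% of nuclear genes were called, so the simulation does not give its power or false calls. Library totals of 28524097 to 32763368 counts limit the precision of genes with few counts. Replicate pairs differed beyond sampling noise, with a chi-square of 6.25 to 57.1 per degree of freedom.

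The members and the 53 gene lists were chosen with earlier results of these data known. In the lists, 113 entries had no single nuclear locus and 40 were left out as another gene of the same symbol. Within a list the text names marked members and up to 3 called members per direction with the largest change and a mean of at least 1 CPM in the higher group. Over all genes it names from the 12 largest rises and falls with at least 10 CPM and no overlap. ICU2, CYCB1;2, RPS5A, RPL27AB, VND4, ACS12, ERS2, ERF1, ARGOS, SMR4, SCRM2, MUTE, TMM, YDA and HT1 were named after their values were seen. Alternatives were median-ratio scaling, total counts, nuclear features only, no filter, at least 10 counts in a group, DESeq2 1.42.0, a minimum fold of 1.5, a replicate block and each library left out.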

Additional observations from a re-analysis of the deposited data

How the results depend on the processing

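Of 20057 nuclear genes, 11325 were called, and the count was 11386 with median-ratio scaling, 12351 with total counts, 11341 with nuclear features only, 11036 with no filter, 11393 with at least 10 counts in a group and 10957 with DESeq2. Testing for a change beyond 1.5-fold gave 4879 calls, 1982 higher and 2897 lower, so many calls are of small size. Total counts gave 8286 higher and 4065 lower. Leaving out 1 library gave 9684 to 11396 calls, with 4695 to 5385 higher and 4989 to 6011 lower. None of the named values changed sign with a call under these alternatives. With total counts 27 results lost their call and 10 gained one. Leaving out mock replicate 3 ended 5 calls and added 10, and leaving out stimulus replicate 4 ended 20 and added 0.

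The replicate block gave 10829 calls, 5151 higher and 5678 lower. Same-numbered mock and stimulus libraries had deviations that correlated at -0.0031, 0.0453 and -0.0804, and mock replicate 4 correlated best with stimulus replicate 2 (0.1343). The numbers were therefore not treated as pairs.

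Fitted changes of genes with few counts in 1 group depend on the prior count. No fold was given where each library of a group held at most 3 counts. Those of ACS4, NAC020, HB17, BASL, CYP79F1, SMR4, CYP707A4 and AT5G22580 rest on at most 10 counts per library of the lower group.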

Other observations

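Noncoding RNAs were examined by their RefSeq class, chosen after values were seen and with no test of the class. Of 247 small nucleolar RNAs tested, which guide the modification of ribosomal RNA, 21 were called higher and 7 lower, with a median log2 change of 0.075. Of 36 microRNA genes, 2 were higher and 10 lower, with a median of -0.38. Long noncoding RNAs had 21 of 316 higher and 60 lower, and the remaining noncoding class had 6 of 103 higher and 28 lower. Protein-coding genes had 5280 of 18866 higher and 5744 lower, with a median of -0.01. Where such RNAs overlap other genes, their values are uncertain without the strand setting.

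Families defined by their RefSeq product name, also chosen after values were seen, included several with more members lower than higher. Among basic helix-loop-helix proteins 47 of 77 were lower and 12 higher, with a median log2 change of -0.64. Disease resistance proteins of the TIR-NBS-LRR class, which detect pathogen effectors inside the cell, had 23 of 45 lower and 8 higher, and those of the CC-NBS-LRR class 13 of 23 lower and 3 higher. GDSL-like lipases had 24 of 42 lower and 9 higher, and major facilitator transporters 48 of 94 lower and 20 higher. Proteins with ARM repeats went the other way, with 41 of 104 higher and 15 lower. These counts stand beside 26.9% higher and 29.6% lower among all nuclear genes.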
